A study of Mus musculus with 56 samples.

Results

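The steroid hormone receptors examined here are 7 genes chosen by name, of 50600 genes quantified in each library. They are the nuclear receptors for progesterone (*Pgr*), estrogens (*Esr1* and *Esr2*), glucocorticoids (*Nr3c1*) and mineralocorticoids (*Nr3c2*), and the membrane-associated progesterone receptor components *Pgrmc1* and *Pgrmc2*. All 7 were found by their Ensembl identifiers, and their expected count was a whole number in all 56 libraries, as when no read is divided with another gene.

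RNA was measured by poly-A RNA-sequencing in thymic epithelial cells (TECs, sorted as EpCAM+CD45- cells) of female B6.SJL mice, each replicate coming from 1 mouse. Cortical TECs (cTECs) were sorted as UEA1- and medullary TECs (mTECs) as UEA1+ cells, and each cell type had 28 samples. Controls were non-pregnant females (NPC). The other females had been mated with BALB/cJ males and were taken at 18 days of gestation (D-2), at parturition (D0) or from D1 to D28 after it, with pups removed at birth, so that no postpartum sample came from a lactating mouse. Time points with 3 samples per cell type were NPC, D-2, D0, D3, D6 as well as D12. A further 10 time points had 1 sample each, which limits each of those 10, taken alone, to a description. The ages of the mice and any transgene are not given in the sources used here. D0 to D12 (18 samples per cell type) were counted as the early and D16 to D28 (4 samples) as the late phase of regeneration. Tests between the phases took samples of different days as samples of a phase. The study asked which changes in TECs accompany the shrinking of the thymus in pregnancy and its regrowth after delivery.

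Nuclear steroid receptors are transcription factors that their hormone switches on. Without hormone, the receptors encoded by *Nr3c1*, *Nr3c2* and *Pgr* are held by HSP90 and its co-chaperones. With hormone, they bind DNA and recruit coactivators or corepressors. PGRMC1 and PGRMC2 are small heme-binding membrane proteins of another family, with no DNA-binding domain. In the thymus, estrogens and progesterone act on the stroma during pregnancy, and glucocorticoids are a classic cause of thymocyte loss.

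Libraries held 4561208 to 108547384 expected counts (median 17972566). The sort labels were checked on marker genes: 7 of 7 cTEC markers were higher in cTECs and 7 of 7 mTEC markers higher in mTECs (adjusted p of at most 0.05, limma-voom). Summed over its 7 genes, the cTEC list ranged from 496 to 7670 FPKM in cTEC libraries and from 205 to 2540 FPKM in mTEC libraries, so the 2 ranges overlapped. The mTEC list summed to 3650 to 8090 FPKM in cTEC libraries and to 10400 to 19800 FPKM in mTEC libraries. FPKM are fragment counts scaled by transcript length and sequencing depth, so that levels of different genes can be compared. Other cells were also seen: 10 thymocyte markers summed to 18.7 to 282 FPKM in cTECs and 8.70 to 106 FPKM in mTECs, and 6 myeloid markers to 4.37 to 39.5 FPKM in cTECs and 10.7 to 192 FPKM in mTECs. The 7 mesenchyme markers summed to 68.6 to 676 FPKM in cTECs and 88.7 to 176 FPKM in mTECs. The part of these other cells in the results below was not tested. As these are bulk samples, fewer cells of a type and less RNA per cell cannot be told apart.

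Of the 7 genes, 6 were detected in nearly every library, and their levels spanned a wide range. *Pgrmc1* had the highest level in both cell types, with a median of 107 FPKM in cTECs (range 76.2 to 138) and 130 FPKM in mTECs (97.04 to 175). *Pgrmc2* was next, with a median of 39.3 FPKM in cTECs and 36.9 FPKM in mTECs, and lay below *Pgrmc1* in 28 of 28 samples of both. The glucocorticoid receptor *Nr3c1* was the most abundant nuclear receptor, with a median of 35.8 FPKM in cTECs (27.6 to 55.0) and 18.2 FPKM in mTECs (13.0 to 28.2). In cTECs, *Pgrmc2* and *Nr3c1* were close, since *Pgrmc2* was the higher of them in 19 of 28 samples, whereas in mTECs it was higher in 27 of 28.

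The remaining nuclear receptors were of lower level, and their order differed between the cell types. In cTECs, *Pgr* (median 7.59 FPKM, range 3.50 to 18.2) and *Nr3c2* (6.78 FPKM, 3.40 to 15.1) were neighbours that changed places, *Pgr* being higher in 19 of 28 samples, and *Esr1* followed (3.33 FPKM, 0 to 6.42). In mTECs, *Esr1* came first (5.56 FPKM, 2.74 to 13.5), before *Nr3c2* (3.02 FPKM, 0 to 16.1) and *Pgr* (2.95 FPKM, 0.870 to 6.17). *Pgr* therefore exceeded *Esr1* in 26 of 28 cTEC samples and in 6 of 28 mTEC samples. *Nr3c2* and *Pgr* in mTECs could not be ordered, *Nr3c2* being higher in 15 of 28 samples. The order of the medians was the same with TPM, the other length-scaled unit deposited, in place of FPKM.

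**Figure D1:**
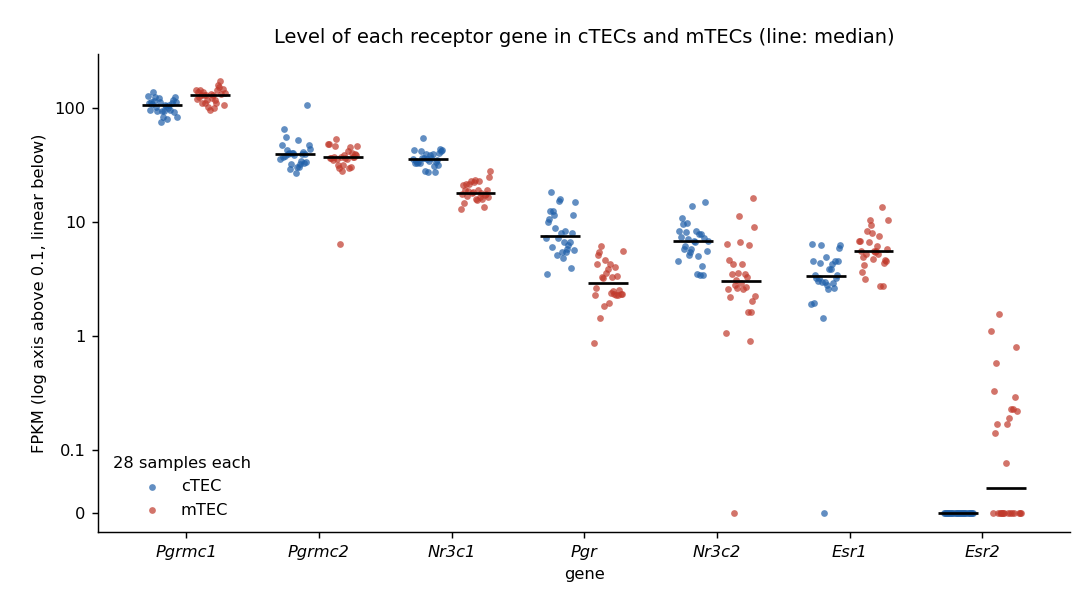
FPKM of the 7 genes in each of the 28 cTEC and 28 mTEC samples (one point per sample, black line the median; the vertical axis is logarithmic above 0.1 FPKM and linear below). *Pgrmc1* sits highest, at medians of 107 and 130 FPKM, and *Esr2* is at 0 in every cTEC sample.

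*Esr2*, the second estrogen receptor gene, was at 0 in all 28 cTEC libraries and above 0 in 14 of 28 mTEC libraries, where it reached at most 1.55 FPKM. No read was assigned to it among 601175254 counts of the cTEC libraries, against 380 of 717913519 counts in mTECs, or 0.529 CPM (counts scaled by library total). With the limit that a count of 0 allows (3 counts over the group, or 0.00499 CPM), the pooled mTEC level was at least 106-fold higher. This limit covers the sampling of reads only and not the spread between libraries, so it is no bound on the difference between the cell types. The mTEC libraries were uneven: the 3 NPC samples had 1.10, 0 and 0.33 FPKM and the 3 D0 samples 0, 1.55 and 0 FPKM. All 3 D-2 samples were above 0, at 0.14, 0.58 and 0.17 FPKM. *Esr2* did not reach a mean of 0.5 FPKM in either cell type and so entered none of the main genome-wide tests.

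*Pgr* lies on chromosome 9 (8899833 to 8968611, plus strand, GRCm38), *Esr1* on chromosome 10 (4611593 to 5005614, plus), *Esr2* on chromosome 12 (76120419 to 76177259, minus), *Nr3c2* on chromosome 8 (76899442 to 77245012, plus), *Pgrmc1* on the X chromosome (36598206 to 36606079, plus) and *Pgrmc2* on chromosome 3 (41066326 to 41083046, minus). *Pgr* was the only member whose level passed a test made here between time points, and *Pgrmc1* was the member with the highest level. The promoters of these 2 members are shown. Each is the 250 bases before the RefSeq transcription start on GRCm38.p6, at chr9:8899583-8899832 and chrX:36597943-36598192. Capitals mark matches on either strand to the GC box (GGGCGG), the CCAAT box (CCAAT), the estrogen response half-site (TGACC) and the glucocorticoid and progesterone response half-site (TGTTCT).
Pgr: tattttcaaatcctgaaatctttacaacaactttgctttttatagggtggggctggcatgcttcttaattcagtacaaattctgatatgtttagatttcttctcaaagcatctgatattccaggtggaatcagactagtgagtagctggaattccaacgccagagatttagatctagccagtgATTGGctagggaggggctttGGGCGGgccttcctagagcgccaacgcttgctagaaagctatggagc
Pgrmc1: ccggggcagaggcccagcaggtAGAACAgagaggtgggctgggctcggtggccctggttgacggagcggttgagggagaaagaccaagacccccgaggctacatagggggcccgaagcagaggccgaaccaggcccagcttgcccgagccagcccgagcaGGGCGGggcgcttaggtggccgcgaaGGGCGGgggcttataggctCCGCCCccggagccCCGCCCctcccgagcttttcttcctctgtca

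The *Pgr* promoter held 1 GC box and 1 CCAAT box and was poor in G and C (43.6% of its bases), whereas that of *Pgrmc1* held 4 GC boxes and no CCAAT box and had 69.6% G and C. The median over the 32851 RefSeq promoters of this length was 52.4%. A GC box occurred in 32.7% and a CCAAT box in 33.8% of all these promoters. Of the half-sites, TGTTCT (in 16.1% of promoters) was found once in the *Pgrmc1* promoter, and TGACC (in 35.2%) in those of *Nr3c2* and *Esr2*, with 2 matches each. The full estrogen response element GGTCANNNTGACC (in 0.0639% of promoters) and the full glucocorticoid and progesterone response element GNACANNNTGTNC (in 0.387%) matched none of the 7 promoters of the 6 members with an entry. The full estrogen element contains its half-site. These are matches of letters in a short window, which say nothing of binding.

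cTECs and mTECs differed in most of these receptors. Over the 6 time points with 3 samples each, *Pgr*, *Nr3c1* and *Nr3c2* were higher in cTECs and *Esr1* and *Pgrmc1* higher in mTECs, so that 5 of the 6 members tested passed (limma-voom, Benjamini-Hochberg adjusted p of at most 0.05 over 18394 genes). Of all genes tested, 38.6% passed in this comparison, so that a gene that differs between these cell types is common.

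*Pgr*, which encodes the nuclear progesterone receptor, averaged 9.31 FPKM in cTECs and 3.32 FPKM in mTECs. Its log2 fold-change was 1.33 ± 0.19 (SE, n = 18 against 18), 2.51-fold higher in cTECs (adjusted p = 9.76e-07, limma-voom). All 3 cTEC samples lay above all 3 mTEC samples at 5 of the 6 time points, and the cTEC sample was higher at 10 of the 10 time points with 1 sample. The groups overlapped at D0 only, where cTECs had 6.06, 12.6 and 11.5 FPKM and mTECs 1.44, 6.17 and 3.27 FPKM.

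*Nr3c1*, the glucocorticoid receptor gene, averaged 35.7 FPKM in cTECs and 18.6 FPKM in mTECs, a log2 fold-change of 0.92 ± 0.07 (1.90-fold, adjusted p = 2.12e-11, limma-voom). This was the most regular difference of the family, with cTECs above mTECs without overlap at 6 of 6 time points and at 10 of 10 time points with 1 sample. *Nr3c2*, which binds aldosterone and also glucocorticoids, was 3.08-fold higher in cTECs by the fit (log2 fold-change 1.62 ± 0.29, adjusted p = 4.55e-05, limma-voom), while its mean FPKM differed less (7.12 against 3.71). Its samples scattered more: the cell types were separate at 2 time points and overlapped at 4, and the cTEC sample was higher at 8 of 10 single time points. Leaving out mTEC D0 replicate 2, where *Nr3c2* was at 0, gave a log2 fold-change of 1.16 (adjusted p = 4.13e-06, limma-voom).

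*Esr1*, the main estrogen receptor gene, went the other way, with 3.18 FPKM in cTECs and 6.05 FPKM in mTECs (log2 fold-change -1.03 ± 0.27, 2.04-fold higher in mTECs, adjusted p = 0.00274, limma-voom). mTECs were above cTECs without overlap at 3 time points, and at 8 of the 10 single time points the mTEC sample was the higher. One cTEC library, D3 replicate 2, was at 0, and without it the log2 fold-change was -0.57 (adjusted p = 0.0201, limma-voom). *Pgrmc1* was also higher in mTECs, though by a small step (130 against 108 FPKM, log2 fold-change -0.28 ± 0.07, adjusted p = 0.00114, limma-voom), with separate groups at 1 of 6 time points. *Pgrmc2* did not pass (41.7 FPKM in cTECs and 37.3 FPKM in mTECs, log2 fold-change 0.14 ± 0.10, adjusted p = 0.259, limma-voom).

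Cells of other types also differed between the 2 sorts. Of the 10 thymocyte markers, 7 were higher in cTEC libraries, and 3 of 6 myeloid markers were higher in mTEC libraries. Of the 7 mesenchyme markers, 1 was higher in cTEC and 3 in mTEC libraries. The part of these other cells in the differences was not tested.

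The other steroid genes were grouped into lists of membrane receptors, coregulators, chaperones, steroid enzymes and hormone targets. Of 6 membrane receptors listed, 4 had a mean of at least 0.5 FPKM in both cell types, and 3 of these 4 were higher in cTECs and none lower. *Paqr8*, a membrane progesterone receptor, averaged 9.45 FPKM in cTECs and 2.13 FPKM in mTECs (log2 fold-change 2.67 ± 0.38). *Paqr7*, of the same family, had a log2 fold-change of 1.62 ± 0.38 (10.6 and 7.72 FPKM). *Gper1*, a G protein-coupled receptor that responds to estrogens, had 1.73 ± 0.47 (5.08 and 3.40 FPKM), opposite in sign to *Esr1*. For both, the mean FPKM differed less than the fit gives. *Paqr7* ranged from 4.87 to 17.3 FPKM in cTECs and 0 to 26.9 FPKM in mTECs. *Gper1* ranged from 0.30 to 14.5 FPKM and 0 to 12.4 FPKM. *Paqr6* (2.12 ± 0.76) entered the test only through its level in cTECs, where it averaged 1.02 FPKM, against 0.669 FPKM in mTECs.

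Of 17 genes of steroid synthesis and conversion listed, 8 had a mean of at least 0.5 FPKM in both cell types, and of these 2 were higher in mTECs (*Star* and *Akr1c18*) and 1 higher in cTECs. A further 5 entered the test only through their level in mTECs, where 4 of them were higher, a direction that the filter favours. Among these 4, *Cyp11a1*, the side-chain cleavage enzyme that starts steroid synthesis, had 0.363 FPKM in cTECs and 5.86 FPKM in mTECs (log2 fold-change -4.83 ± 0.56). *Star*, which carries cholesterol into mitochondria, had 0.564 and 3.54 FPKM, and *Akr1c18*, which inactivates progesterone, 0.797 and 4.61 FPKM. *Sult1e1*, which sulfates estrogens and likewise entered only through mTECs, had a log2 fold-change of -3.41 ± 0.62. mTECs are known to transcribe many genes of other tissues at low levels, and no member of this list was set against such genes here.

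Coregulators and chaperones differed in both directions, by small steps except for *Foxa1*. Of 12 coregulators, 2 were higher in cTECs (*Ncoa1* by 0.52 and *Nrip1* by 0.38 on the log2 scale). A further 2 were higher in mTECs, *Pelp1* (-0.44 ± 0.11) and *Foxa1* (-1.16 ± 0.34), a factor that opens chromatin for estrogen receptor. Of 12 chaperones, *Hspa8* (-0.39 ± 0.06) and *Hsp90ab1* (-0.22 ± 0.04) were higher in mTECs and *Stub1* (0.34 ± 0.08) in cTECs. Of 8 hormone targets, *Sgk1* (-1.06 ± 0.20) and *Greb1* (-2.56 ± 0.78) were higher in mTECs, the latter entering only through its level there, and *Klf9* (0.35 ± 0.13) higher in cTECs. Beside the 38.6% of all genes that passed in this comparison, the counts of these lists did not stand out.

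**Figure D2:**
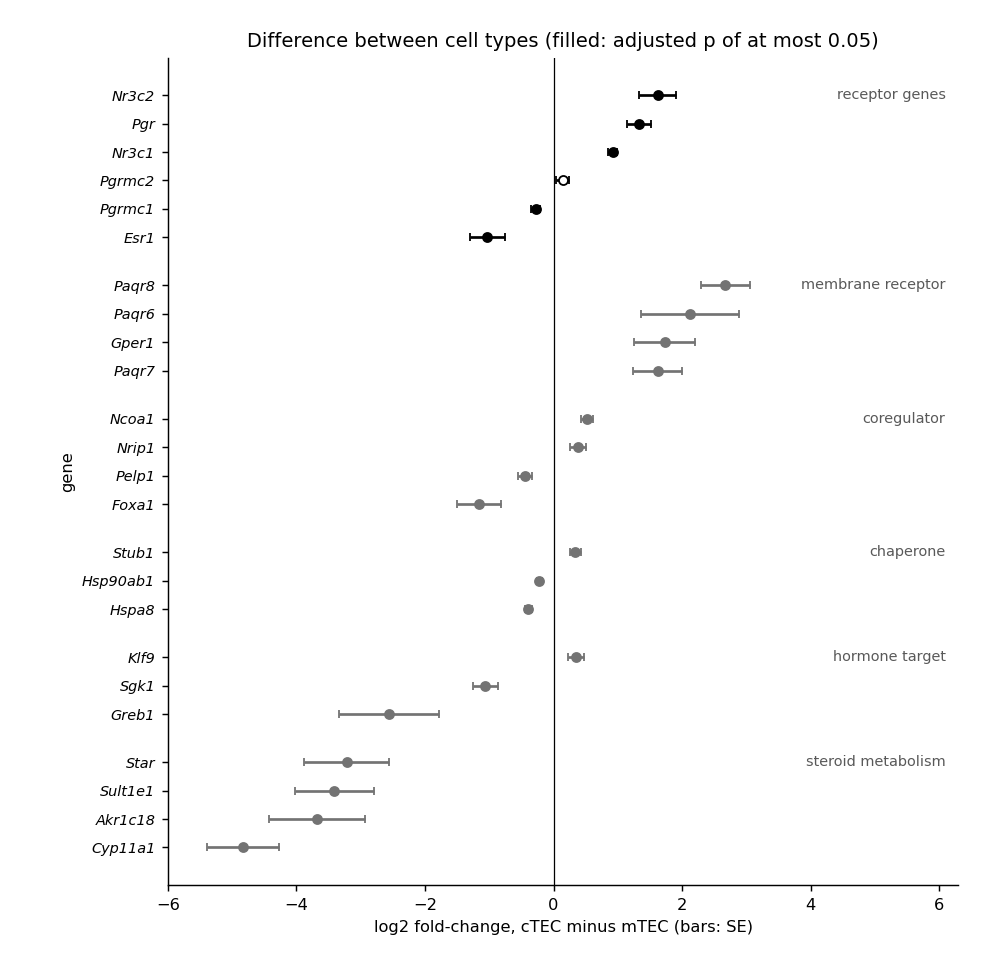
Log2 fold-change between cTECs and mTECs (right of 0: higher in cTECs; bars: SE) for the 6 members tested, in black, and for up to 4 passing genes of each list, in grey; filled circles passed. *Pgr*, *Nr3c1*, *Nr3c2* and the membrane receptors lie to the right and *Esr1* and *Pgrmc1* to the left.

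At the end of gestation, *Pgr* was the member that differed from NPC. In mTECs, it was at 0.870, 2.27 and 2.65 FPKM in NPC and at 4.33, 5.12 and 5.48 FPKM at D-2. All 3 D-2 samples were above all 3 NPC samples. The log2 fold-change was 1.87 ± 0.46 (3.65-fold, adjusted p = 0.0378, limma-voom), and *Pgr* was the only 1 of the 6 members tested to pass, where 2.33% of all genes did. The call was lost with other tests (adjusted p = 0.330 by edgeR and 0.0764 by DESeq2) and without D-2 replicate 1, 3 or 4 or NPC replicate 1 or 3 (0.0618 to 0.256), and the direction stayed in each of these.

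In cTECs, *Pgr* stood at 7.18, 3.50 and 9.94 FPKM in NPC and at 10.6, 12.6 and 18.2 FPKM at D-2. Again the 3 D-2 samples were above the 3 NPC samples. The log2 fold-change of 1.26 ± 0.37 did not pass (adjusted p = 0.241, limma-voom) and was 0.73 without NPC replicate 4, the lowest sample (adjusted p = 1). It stood in a comparison where 0.353% of all genes passed and none of the 6 members did, 1 of them with an unadjusted p under 0.05, and none by edgeR or DESeq2. The difference in log2 fold-change between the cell types, cTEC minus mTEC, was -0.61 ± 0.62 (adjusted p = 0.875, limma-voom), and -1.15 without cTEC NPC replicate 4 (adjusted p = 0.881), so that a difference between them in this change was not shown. That test called no gene of 18394 (0% of genes, with 1480 at an unadjusted p under 0.05, none by edgeR and 60 by DESeq2) and none of the members, of which 1 had an unadjusted p under 0.05.

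The other receptors gave no call at D-2. *Esr1* in mTECs was at 6.83, 6.78 and 5.61 FPKM in NPC and at 3.68, 4.92 and 4.21 FPKM at D-2, so the D-2 samples were all below, but its log2 fold-change of -0.73 ± 0.31 did not pass (adjusted p = 0.237, limma-voom). *Esr1* in cTECs overlapped between the time points (1.90, 6.42 and 4.55 FPKM against 1.93, 3.42 and 3.23 FPKM). *Nr3c1* was 37.2 ± 4.82 FPKM in NPC and 33.6 ± 0.800 FPKM at D-2 in cTECs (SD, n = 3) and 17.3 ± 4.08 and 18.5 ± 3.47 FPKM in mTECs. *Pgrmc2* at D-2 in cTECs (65.2, 38.3 and 55.4 FPKM) overlapped with NPC (36.0, 47.7 and 37.0 FPKM).

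Among the listed genes, the hormone targets *Klf9* (1.69 ± 0.23) and *Zbtb16* (4.03 ± 0.99) rose on the log2 scale in mTECs at D-2, 2 of 8 tested. *Klf9*, a transcription factor gene induced by glucocorticoids and progesterone, went from 39.5 to 132 FPKM. The chaperone *Hsp90aa1*, the stress-inducible HSP90 gene, rose from 537 to 1660 FPKM in mTECs (1.26 ± 0.20 on the log2 scale), alone of 12. The coregulators *Crebbp* (1.21 ± 0.22), a coactivator with acetyltransferase activity, and *Ncor1* (0.95 ± 0.18), a corepressor, rose as well, 2 of 12. In this mTEC comparison 2.33% of all genes passed, and 338 of the 414 calls were upward. Across settings the number called ran from 12 to 919. In cTECs, no listed gene passed at D-2 against NPC, where 0.353% of all genes did.

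The cTEC markers moved at the same time. Their sum in cTECs was 2380 to 5060 FPKM in NPC and 496 to 940 FPKM at D-2, with 6 of 7 falling, and the mTEC markers in these libraries summed to 4360 to 6090 and 5780 to 8090 FPKM. In mTEC libraries, the sum of the 7 mTEC markers was 11900 to 19800 FPKM in NPC and 10400 to 16900 FPKM at D-2, none passing. The part of these marker changes in the *Pgr* values was not tested.

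Between D-2 and D0 no member passed in either cell type, and neither did any gene by limma-voom (0% of 15845 genes in cTECs, 623 with an unadjusted p under 0.05, and 0% of 17743 genes in mTECs, 1136 with an unadjusted p under 0.05). By edgeR no gene passed either, whereas DESeq2 called 27 genes in cTECs and 23 in mTECs, none of them a member. In mTECs, DESeq2 gave an adjusted p to 3982 genes only, and to neither *Pgr* nor *Nr3c2*. No member had an unadjusted p under 0.05. *Pgr* was at 6.06, 12.6 and 11.5 FPKM at D0 in cTECs (log2 fold-change -0.55 ± 0.27) and at 1.44, 6.17 and 3.27 FPKM in mTECs (-0.33 ± 0.40). The lowest fold-change of the comparison, that of *Nr3c2* in mTECs (-2.58 ± 1.34, adjusted p = 0.794, limma-voom), rested on 1 library at 0 FPKM, and the other two D0 samples, at 4.26 and 2.80 FPKM, were within the D-2 range of 2.22 to 4.61 FPKM.

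By D6, which the study took as the time of strongest regrowth, *Pgr* in cTECs was below its level at D-2. The 3 samples at D6 had 4.88, 6.67 and 8.36 FPKM, all under the lowest D-2 sample. The log2 fold-change was -1.24 ± 0.29, a 2.37-fold fall (adjusted p = 0.0154, limma-voom), and *Pgr* was 1 of 6 members to pass where 5.6% of all genes did. The level at D6 (6.64 ± 1.74 FPKM, SD, n = 3) and at D12 (5.63 ± 1.49 FPKM) lay within the range of NPC. The call was lost with edgeR (adjusted p = 0.0829), without a filter on low genes (0.0612) and without D6 replicate 2 (0.0937), D6 replicate 4 (0.0520), D-2 replicate 3 (0.0625) or D-2 replicate 4 (0.0727). Of the study's own thresholds, *Pgr* met the fold-change of 2 but not the adjusted p of 0.01 in the main fit here. With sample quality weights it met both (log2 fold-change -1.29, adjusted p = 0.00941, limma-voom). The paper itself names *Pgr* among genes higher in cTECs at D-2 than at D6. Its comparison called more genes than the main fit here, which called 250 in cTECs at those thresholds.

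In mTECs, *Pgr* was at 2.39, 3.31 and 2.49 FPKM at D6, again below all 3 samples of D-2, but the log2 fold-change of -0.90 ± 0.49 did not pass (adjusted p = 0.761, limma-voom). There, 0.49% of all genes passed and none of the 6 members, of which none had an unadjusted p under 0.05. Neither edgeR nor DESeq2 called a member. A difference between the cell types in this change was not shown by the interaction test (-0.37 ± 0.59, adjusted p = 1, limma-voom). That test passed for 0.0326% of genes and for no member, with none of the members at an unadjusted p under 0.05.

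The time course of *Pgr* was uneven between these points. In cTECs, D3 had 1 sample at 7.18 FPKM and a pair at 15.4 and 15.9 FPKM, near the highest value of the gene, 18.2 FPKM in D-2 replicate 4. The single samples of D1 and D4 had 8.90 and 8.0 FPKM, and those of D2, D5, D8 and D10 lay between 5.11 and 5.75 FPKM. In mTECs, *Pgr* spread over 1.44 to 6.17 FPKM at D0 alone, wider than from D1 to D28 (1.84 to 5.55 FPKM).

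**Figure D3:**
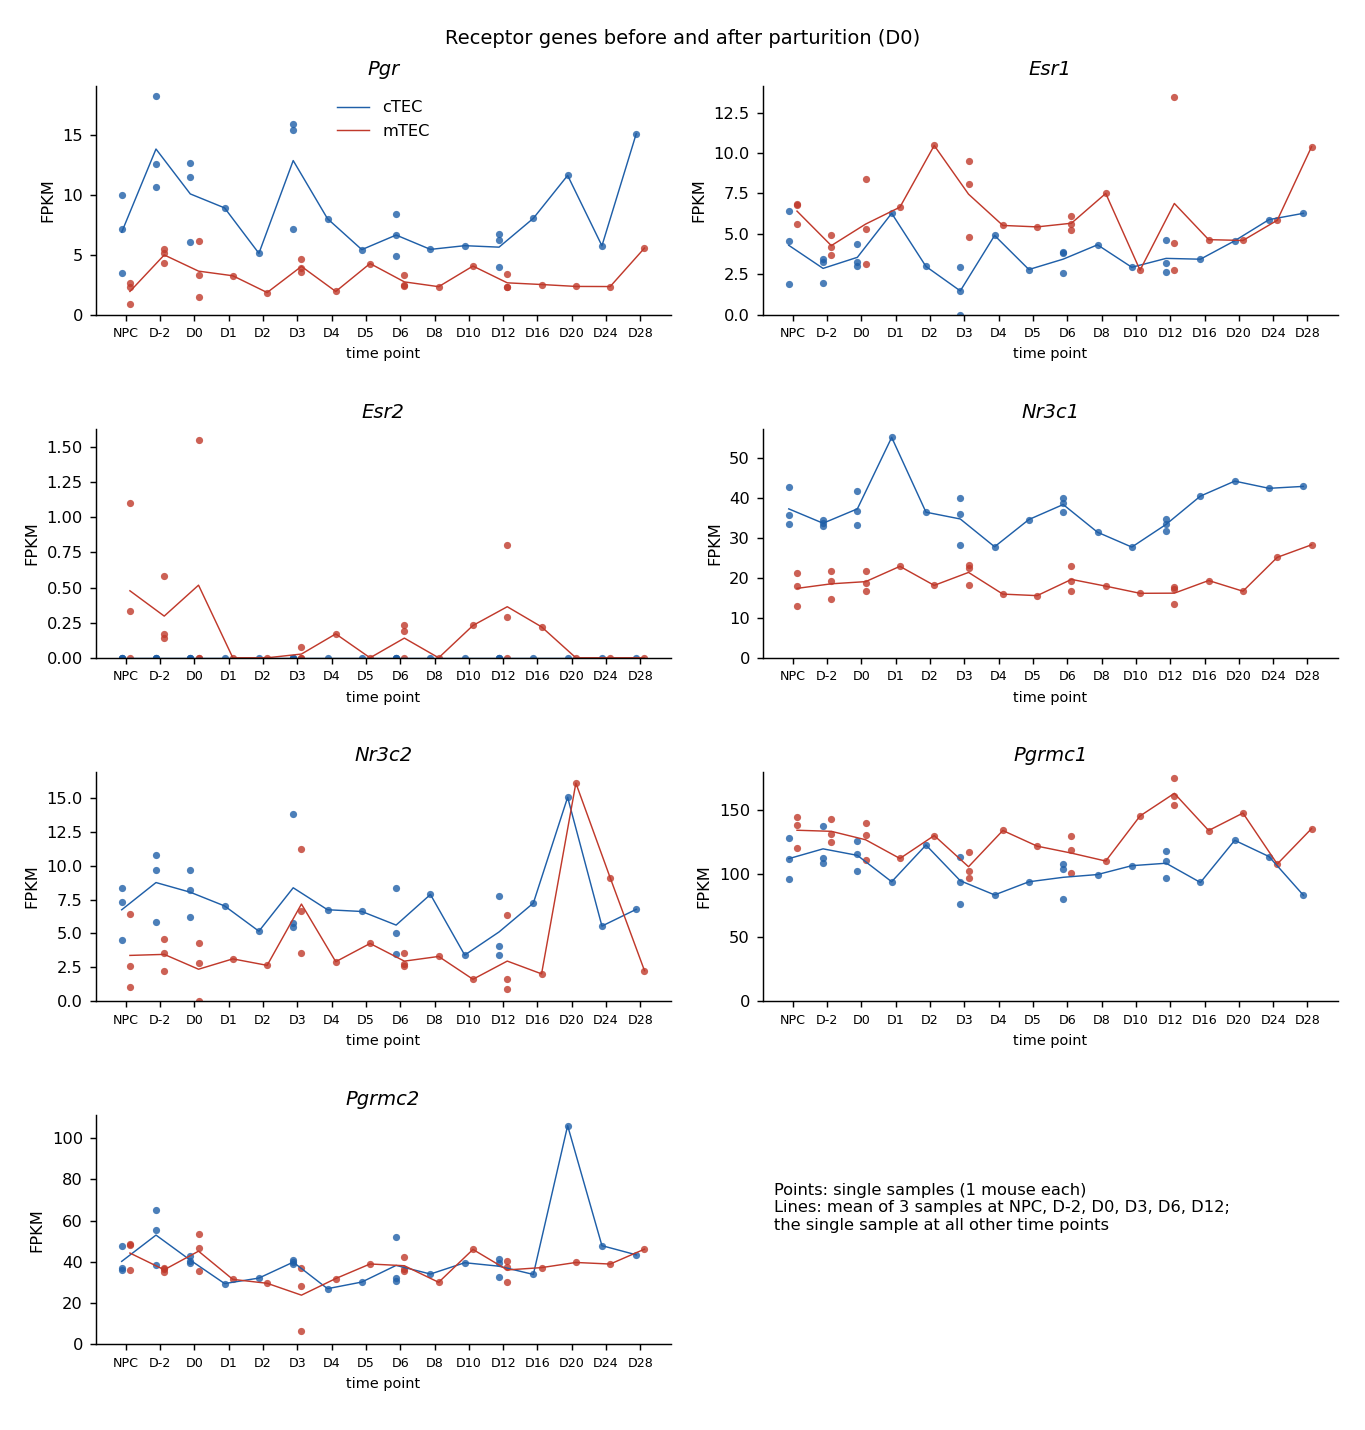
FPKM of each of the 7 genes by time point in cTECs (blue) and mTECs (red); points are single samples and lines join the means. *Pgr* in cTECs is at 10.6 to 18.2 FPKM at D-2 and at 4.88 to 8.36 FPKM at D6, and *Nr3c1* in cTECs lies above mTECs throughout.

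*Pgrmc2* in cTECs was the member nearest to *Pgr* at D6, with 52.1, 30.6 and 32.1 FPKM against 65.2, 38.3 and 55.4 FPKM at D-2. The groups overlapped, and the log2 fold-change of -0.54 ± 0.18 did not pass (adjusted p = 0.0949, limma-voom), although DESeq2 called it (adjusted p = 0.0295). *Nr3c1* in cTECs had all 3 samples at D6 (38.7, 36.3 and 39.8 FPKM) above those at D-2 (34.4, 32.8 and 33.6 FPKM), with a log2 fold-change of 0.29 ± 0.14 that did not pass (adjusted p = 0.271, limma-voom). *Pgrmc1* in cTECs was at 107, 104 and 80.4 FPKM at D6, all below D-2 (113, 108 and 138 FPKM), without a call (-0.31 ± 0.19, adjusted p = 0.409, limma-voom). D3 and D12 were not tested against other time points. *Pgrmc1* in mTECs had its highest values at D12, at 161, 154 and 175 FPKM. The next highest mTEC sample, that of D20, had 148 FPKM. Whether *Pgrmc1* at D12 differs from other time points was not tested.

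In the same comparison the hormone targets *Klf9* (-1.66 ± 0.32), *Per1* (-1.43 ± 0.33) and *Sgk1* (-1.43 ± 0.39) fell in cTECs, 3 of 6 tested, and in mTECs *Klf9* fell (-1.40 ± 0.25), 1 of 8. The medians over the tested targets were -1.43 in cTECs and -1.01 in mTECs, beside -0.02 and -0.03 over all genes. As the list was chosen with earlier results of these data known, these medians are a description only. Of all genes, 5.6% passed at D6 against D-2 in cTECs and 0.49% in mTECs. The same D-2 libraries also served the comparison with NPC. *H6pd*, which supplies the cofactor for glucocorticoid reactivation in the endoplasmic reticulum, fell in cTECs from 20.3 to 7.12 FPKM, alone of 8 tested in its list. *Hsp90aa1* fell in mTECs from 1660 to 466 FPKM. No coregulator and no membrane receptor passed in either cell type. Beside these values, the cTEC markers in cTECs summed to 6090 to 7430 FPKM at D6, 6 of 7 rising from D-2, and 2 of 10 thymocyte markers rose, their sum being 19.5 to 21.4 FPKM at D-2 and 55.4 to 71.4 FPKM at D6. In the same cTEC libraries 2 of 7 mTEC markers fell (sum 5780 to 8090 FPKM at D-2 and 3650 to 4250 FPKM at D6), as did 1 of 5 mesenchyme markers tested (282 to 371 and 106 to 157 FPKM), and of 5 markers of TECs in general 2 rose and 1 fell. In mTEC libraries 3 of 7 cTEC markers rose, their sum being 271 to 576 FPKM at D-2 and 1020 to 2540 FPKM at D6, and 1 of the 5 general markers rose. The part of these in the results was not tested.

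**Figure D4:**
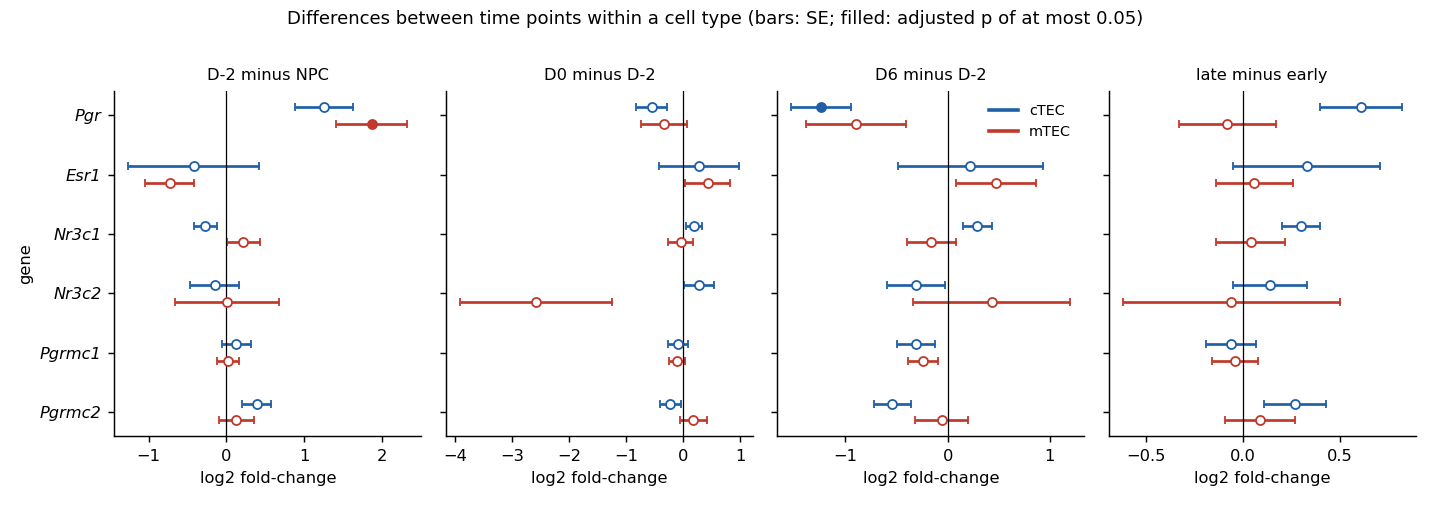
Log2 fold-changes of the 6 members tested in the 4 comparisons between time points, for cTECs (blue) and mTECs (red); bars show the SE and filled circles passed. The 2 filled circles are *Pgr* in mTECs at D-2 against NPC (1.87) and *Pgr* in cTECs at D6 against D-2 (-1.24).

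In the late phase, *Nr3c1* and *Pgr* in cTECs came close to the threshold without passing it. Each late sample came from a different day, so the SE and adjusted p of this comparison treat days as replicates. *Nr3c1* was at 40.4, 44.1, 42.3 and 42.8 FPKM at D16, D20, D24 and D28. The 18 early samples had a lowest value of 27.6, a median of 35.3 and a highest of 55.0 FPKM (the D1 sample), so the late samples lay in the upper part of the early range. The log2 fold-change was 0.30 ± 0.10 (adjusted p = 0.0619, limma-voom), and it passed under 6 of 10 other settings, DESeq2 among them (0.0243). It was 0.18 without the D20 sample (adjusted p = 0.289) and 0.15 with D12 counted as late (adjusted p = 0.525). *Pgr* was at 8.03, 11.6, 5.74 and 15.1 FPKM in the late samples and at 3.93 to 15.9 FPKM (median 6.69) in the early ones (0.61 ± 0.21, adjusted p = 0.0609, limma-voom). It passed without the D24 sample (0.85, adjusted p = 0.00966), and was smaller without D20 (0.44) or D28 (0.42).

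None of the 6 members passed in cTECs by limma-voom, while 10.7% of all genes did, and 2 had an unadjusted p under 0.05. EdgeR called none and DESeq2 called 1 of them. In mTECs, 1.96% of all genes passed and no member by any of the 3 tools, none with an unadjusted p under 0.05 by limma-voom. There, DESeq2 gave an adjusted p to 7759 genes only, and not to *Pgr*. The log2 fold-changes of the members in mTECs were all between -0.08 and 0.09. Of the late samples, D20 was high in *Pgrmc2* in cTECs, both in FPKM (106, against 27.0 to 65.2 in the other 27 cTEC samples) and in CPM (191, against 72.0 to 145). *Nr3c2* at D20 was highest in FPKM only (15.1 in cTECs and 16.1 in mTECs), since its CPM there, 25.7 in cTECs and 9.20 in mTECs, lay within those of the other samples (14.1 to 42.7 in cTECs and 0 to 27.5 in mTECs).

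Around the receptors, 3 of 5 membrane receptors tested fell in the late phase in cTECs, *Paqr8* (-0.93 ± 0.24), *Paqr7* (-0.61 ± 0.17) and *Gper1* (-2.63 ± 0.79). The median over the 5 tested was -0.93, beside -0.04 over all genes, a description only, since this list too was chosen with earlier results known. Of 12 chaperones, 4 fell in cTECs, led by *Fkbp4*, a co-chaperone of progesterone and glucocorticoid receptors (195 to 127 FPKM, log2 fold-change -0.79 ± 0.13), with *Stub1*, *Bag1* and *Hsp90ab1*. *Fkbp4* fell in mTECs too (-0.54 ± 0.13). The coactivator *Ncoa3* rose in cTECs (0.47 ± 0.15) and *Foxa1* in mTECs (1.00 ± 0.24). The target *Per1* rose in cTECs (0.64 ± 0.20), 1 of 6. Of all genes, 10.7% passed in cTECs and 1.96% in mTECs. The number called in cTECs ran from 13, with D12 counted as late, to 5267 with sample quality weights. In mTECs it ran from 9 to 1886 across settings. Mesenchyme markers were higher in these late cTEC libraries, 4 of 5 tested, their sum being 68.6 to 355 FPKM in early and 292 to 676 FPKM in late samples. There, 4 of 7 mTEC markers were also higher, 3 of 5 general TEC markers lower and 1 of 7 cTEC markers lower, the cTEC list summing to 1160 to 7670 FPKM in early and 2060 to 6710 FPKM in late samples. In mTECs, 2 of 7 cTEC markers and 1 of 5 general TEC markers were lower, and 1 of 7 mTEC and 1 of 6 myeloid markers higher. The part of these in the late values was not tested.

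The members varied unequally among replicates. On the scale of log2(FPKM + 0.5), the spread within a time point (pooled SD) was 0.15 for *Nr3c1* and 0.21 for *Pgrmc1* in cTECs, and 0.24 and 0.14 in mTECs. It was 0.52 for *Pgr* in cTECs and 0.48 in mTECs, and reached 1.04 for *Nr3c2* in mTECs. With 3 samples a group, only larger steps could thus be detected for *Nr3c2* than for *Nr3c1*.

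Genes whose profile over the 28 samples was most like that of each member were picked by Pearson's r of log2(FPKM + 0.5) in the cell type with the higher mean, among genes with a mean of at least 5 FPKM (10065 in cTECs and 10499 in mTECs). These are descriptions over samples that share libraries and time points. For *Pgr* in cTECs they were *Oat* (r = 0.79), *Ripk4* (0.79) and *Maml1* (0.77), and for *Nr3c1* in cTECs *Ptger3* (0.73), *Kif1b* (0.71) and *Nrip1* (0.70), the last a coregulator of nuclear receptors. For *Esr1* in mTECs they included *Egfr* (0.71) and *Zfp777* (0.66). *Nr3c2* in cTECs was nearest to *Wdr45* (0.70), *Pkp4* (0.69) and *Max* (0.67). *Pgrmc1* in mTECs was nearest to *Lxn* (0.82), *Serpina3g* (0.79) and *Ubd* (0.79), and the genes nearest to *Pgrmc2* in cTECs included *Slco3a1* (0.79) and *Eps8l2* (0.77).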

How the data were processed

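Reads were trimmed by the authors with Trimmomatic 0.35, aligned to GRCm38 with STAR 2.5.1b and quantified with RSEM 1.2.28. The deposited expected counts are RSEM's unnormalized estimates per gene, the deposited TPM are scaled by length and to a constant total, and the deposited FPKM by length and mapped fragments. Identifiers were matched without version to GENCODE M21 for symbols (50376 of 50600). The members and lists were chosen with earlier results of these data known.

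Expected counts were rounded, scaled by TMM (edgeR 4.0.16) and tested with limma 3.58.1 (voom, R 4.3.3) after removing genes with a mean FPKM under 0.5 in the cell type (in both, for tests across cell types). A gene passed at an adjusted p (Benjamini-Hochberg, over all genes tested) of at most 0.05. Fits within a cell type used 28 samples with a mean per time point, fits of late against early 22, and fits across cell types all 56. Named list genes were those that passed, up to 4 per list and comparison by lowest adjusted p. They are given for the main fit only, without the other settings. The text gives log2 fold-changes ± SE from these fits, whose sign and size can differ from those of mean FPKM.

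Total counts of 4561208 to 108547384 per library limit precision. Each replicate came from 1 mouse. Alternatives were edgeR, DESeq2 1.42.0, other scaling, filters, weights and designs, and leaving out each replicate. The tests were also run on simulated counts, with the same assumed spread for every gene and changes set only in genes of higher count. Those runs do not cover low genes with libraries at 0. Descriptive values were computed with pandas 2.3.3 and NumPy 2.4.6 in Python 3.11.15. Promoters came from RefSeq (GRCm38.p6), with an entry for 6 of 7 members. Same-numbered samples did not deviate together: across cell types at 1 time point, 16 such pairs had correlations of -0.156 to 0.106 (median 0.0266). For likeness of profile, the 3 genes with the highest r were taken for each member, of which 2 genes in all are not reported here.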

Additional observations from a re-analysis of the deposited data

Results flagged for a closer look

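Among the 4 late mTEC samples, *Pgr* at D28 stood apart with 5.55 FPKM, the next highest being 2.51 FPKM, a gap of 0.947 of the group's range. This exceeded Dixon's limit for 4 samples (0.829), which chance alone passes in about 1 of 20 groups, and 13 groups of late samples were examined. *Esr2* at D16 had 0.22 FPKM, while the other 3 late mTEC samples were at 0. With 3 values at 0 any value above 0 exceeds the limit, so that this is a description only.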

How the results depend on the processing

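The 5 calls between cTECs and mTECs kept their direction and passed under all 9 other fits and all 36 fits that left out 1 replicate. By the study's thresholds 3 of the 5 passed. Without a filter on low genes, *Esr2* entered through its counts in mTECs, and 6 members passed. *Pgr* at D6 against D-2 in cTECs was the 1 member called, and the count became 0 under the study's thresholds, edgeR, no filter and limma-trend with a pseudocount of 0.5 or 0.1, 2 by DESeq2, and 0 to 1 without single replicates. For D-2 against NPC in mTECs it went from 1 to 0 under the study's thresholds, edgeR, DESeq2, limma-trend with either pseudocount, sample quality weights, the 2 time points alone and the replicate block (*Pgr* adjusted p = 0.185), and was 0 to 1 without single replicates. For D6 against D-2 in mTECs it was 1 with sample weights. For late against early in cTECs, where none passed, it was 1 by DESeq2, without a filter and with the replicate block, 2 with RLE size factors or without TMM, 3 with sample weights, and 0 to 2 without single replicates. The cause was not tested. The replicate block changed no other count of members, and since same-numbered samples did not deviate together it is no paired analysis. The late minus early log2 fold-change of *Pgr* in mTECs turned to 0.02 by DESeq2, 0.04 without TMM, 0.00 with limma-trend at a pseudocount of 0.1, 0.23 with sample weights and 0.01 with the block, and ran from -0.45 to 0.09 without single replicates; those of D0 against D-2 in mTECs ran from -0.88 to 0.01 (*Pgr*) and from -3.97 to 0.39 (*Nr3c2*). Of 66 member values tested, 30 turned sign under some alternative, none of them among the 7 that passed. Counts over all genes moved more: 414 genes at D-2 against NPC in mTECs (12 to 919), 56 in cTECs (4 to 300), 888 at D6 against D-2 in cTECs (436 to 1509) and 87 in mTECs (29 to 2494), and late against early 1702 in cTECs (13 to 5267) and 347 in mTECs (9 to 1886). None at D0 against D-2 became 0 to 27 in cTECs and 0 to 263 in mTECs, and the differences between cell types in D-2 against NPC (none) and D6 against D-2 (6) became 0 to 60 and 2 to 332. *Esr2*, *Nr3c2* and *Esr1* were at 0 in some libraries, where low counts limit their values.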
